A study of Mus musculus with 8 samples.

Results

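Monocyte attractants and the monocyte receptor CD14 were examined in lysates of 2 mouse tumour lines. The 5 proteins were the chemokines CCL2 (listed as CCL2/JE/MCP-1, gene Ccl2, Entrez Gene 20296), CCL12 (CCL12/MCP-5, Ccl12, 20293) and CCL6 (CCL6/C10, Ccl6, 20305), the chemoattractant chemerin (Rarres2, 71660) and CD14 (Cd14, 12475). They were grouped by function, with earlier results of these data known, and were found by Entrez Gene ID among the 111 analytes of a chemiluminescent antibody array. The value used is the mean intensity of an analyte's duplicate spots, in arbitrary units on a linear scale. Each antibody pair has its own response, so levels are compared between membranes and not between proteins.

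CCL2 and CCL12 are ligands of CCR2, the receptor by which monocytes leave the bone marrow and enter inflamed tissue and tumours. CCL6 is a mouse chemokine made by myeloid cells that acts through CCR1, and chemerin is secreted as a precursor, cut by proteases and sensed by CMKLR1 on macrophages, plasmacytoid dendritic cells and NK cells. CD14 presents lipopolysaccharide to TLR4 on monocytes and macrophages, and a soluble form of it circulates in blood.

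The mouse epithelial tumour line TC-1 and its radiation-resistant counterpart TC-1/IR both express the HPV16 oncoproteins E6 and E7. The hosts were female C57BL mice aged 10 weeks, which were given 100000 cells of TC-1 or 300000 of TC-1/IR subcutaneously in the right thigh and were treated from 8 to 10 days later, at about 100 mm3. Tumours of each line were taken at the endpoint after buffer, after gamma irradiation of the whole body with 2 Gy a day on 4 days (RT), after 50 µg of rhIL-7-hyFc injected on days 0 and 7 (IL-7), or after RT + IL-7. The agent rhIL-7-hyFc is recombinant human IL-7 carrying a hybrid Fc.

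Every group was represented by 1 membrane. Its lysate is pooled by the sample's title but comes from individual mice by the design text, which leaves unclear how many animals it represents. The irradiation reached the whole animal and not only the tumour, and the lines differed in the number of cells implanted. A membrane reports the whole lysate, so fewer cells of a type and less protein per cell cannot be told apart.

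Summed signal was 1173 to 1449 on the TC-1 membranes. On the TC-1/IR membranes it was 765 with buffer, 1473 with RT, 1495 with IL-7 and 739 with RT + IL-7. A level counted as measured above a floor of 2.49, which is 1% of the highest analyte mean of the series. From 68 to 91 analytes passed it on a TC-1 membrane and 36 to 64 on a TC-1/IR membrane. Because overall signal moved with treatment in TC-1/IR, results are also given after median centring, in which each membrane was scaled so that the 28 analytes above the floor on all 8 membranes had the same median log2 level. The floor itself was not scaled, so centring could carry a level across it. Single membranes were compared by a rule of size: means 1.5-fold apart or more, a level over the floor on 1 or both membranes, and separate ranges of the duplicate spots. These comparisons have no replicate and no p-value. CD14 and chemerin were above the floor on all 8 membranes, CCL12 on 5, CCL6 on 4 and CCL2 on 1.

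**Figure D1:**
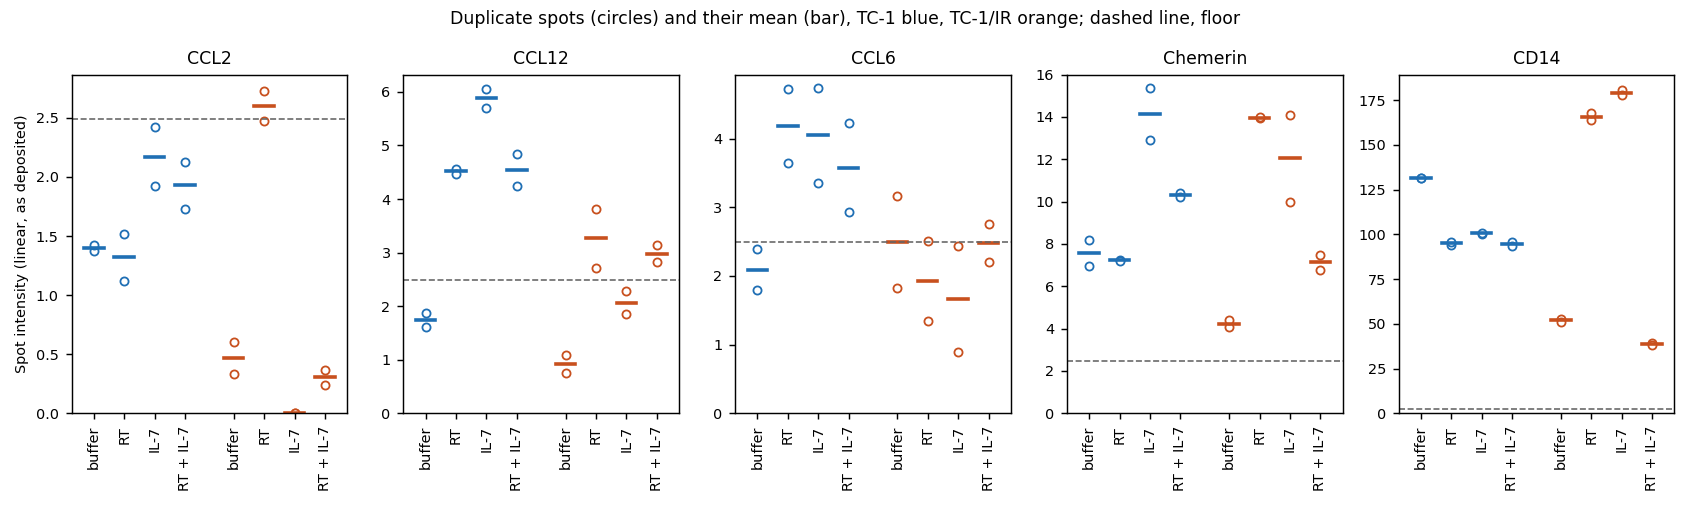
Spot intensity (linear scale, arbitrary units) of the 5 proteins on the 8 membranes, with duplicate spots as circles, their mean as a bar, TC-1 in blue, TC-1/IR in orange and the floor of 2.49 dashed. CD14 lay between 94.7 and 132 in TC-1 but ranged from 38.7 to 179 in TC-1/IR, and CCL2 passed the floor on the TC-1/IR RT membrane alone.

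CD14 was far above the floor on every membrane, and its level spread more widely over the treatments in TC-1/IR tumours than in the parental ones. In TC-1 tumours the mean of its spots was 132 with buffer, 94.9 with RT, 100.5 with IL-7 and 94.7 with RT + IL-7. In TC-1/IR tumours it was 51.8 with buffer, 166 with RT, 179 with IL-7 and 38.7 with RT + IL-7. The buffer tumour thus held the highest level in TC-1 and the second lowest in TC-1/IR, and the treatments that gave the highest 2 levels of the series, RT and IL-7 in TC-1/IR, were each given alone. The order from lowest to highest was TC-1/IR RT + IL-7, TC-1/IR buffer, TC-1 RT + IL-7, TC-1 RT, TC-1 IL-7, TC-1 buffer, TC-1/IR RT and TC-1/IR IL-7. The spots of TC-1 RT + IL-7 and TC-1 RT overlapped, and those of all other neighbours in that order did not. Over the 4 membranes of a line, CD14 was 105 ± 17.7 (SD, n = 4 treatments) for TC-1 tumours and 109 ± 73.8 for TC-1/IR tumours. The highest level was 1.39 times the lowest for TC-1 and 4.63 times for TC-1/IR.

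Against buffer in TC-1/IR, CD14 was 3.19-fold higher with RT and 3.45-fold higher with IL-7. The combination was 1.34-fold lower than buffer, short of the 1.5-fold asked for, and was 4.28-fold lower than RT and 4.63-fold lower than IL-7. By the same rule 46.3% of the 67 analytes measured were higher with RT than with buffer, and 49.1% of 53 were higher with IL-7. Of the 66 and 54 analytes measured, 47% were lower in the combination than with RT and 57.4% lower than with IL-7. In TC-1 the treated membranes were 1.31-fold to 1.39-fold below buffer in CD14 and none passed the rule, which 3.49%, 1.1% and 13.3% of analytes passed as lower with RT, IL-7 and both.

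Median centring shrank these folds but did not remove them. Centred CD14 in TC-1/IR was 78.7 with buffer, 141 with RT, 193 with IL-7 and 75.9 with RT + IL-7, and in TC-1 it was 118, 88.0, 81.6 and 110 in that order of treatments. RT was then 1.79-fold and IL-7 2.45-fold above buffer in TC-1/IR, and the combination was 1.85-fold below RT and 2.54-fold below IL-7. After centring 19% and 32.3% of analytes were higher than buffer with RT and with IL-7, and 18.8% and 21.2% were lower in the combination than with RT and with IL-7. A pattern in which both single agents exceeded both buffer and the combination was met in TC-1/IR by 16 of 96 analytes as deposited (16.7%), CD14 and chemerin among them. After centring CD14 was the one analyte of 94 (1.06%) that met it. The 96 and the 94 are analytes above the floor on any membrane of either line, so not all of them could meet it. As deposited, 53 analytes were measured for IL-7 against buffer in TC-1/IR. That pattern was picked out after the values had been seen and is a description.

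**Figure D2:**
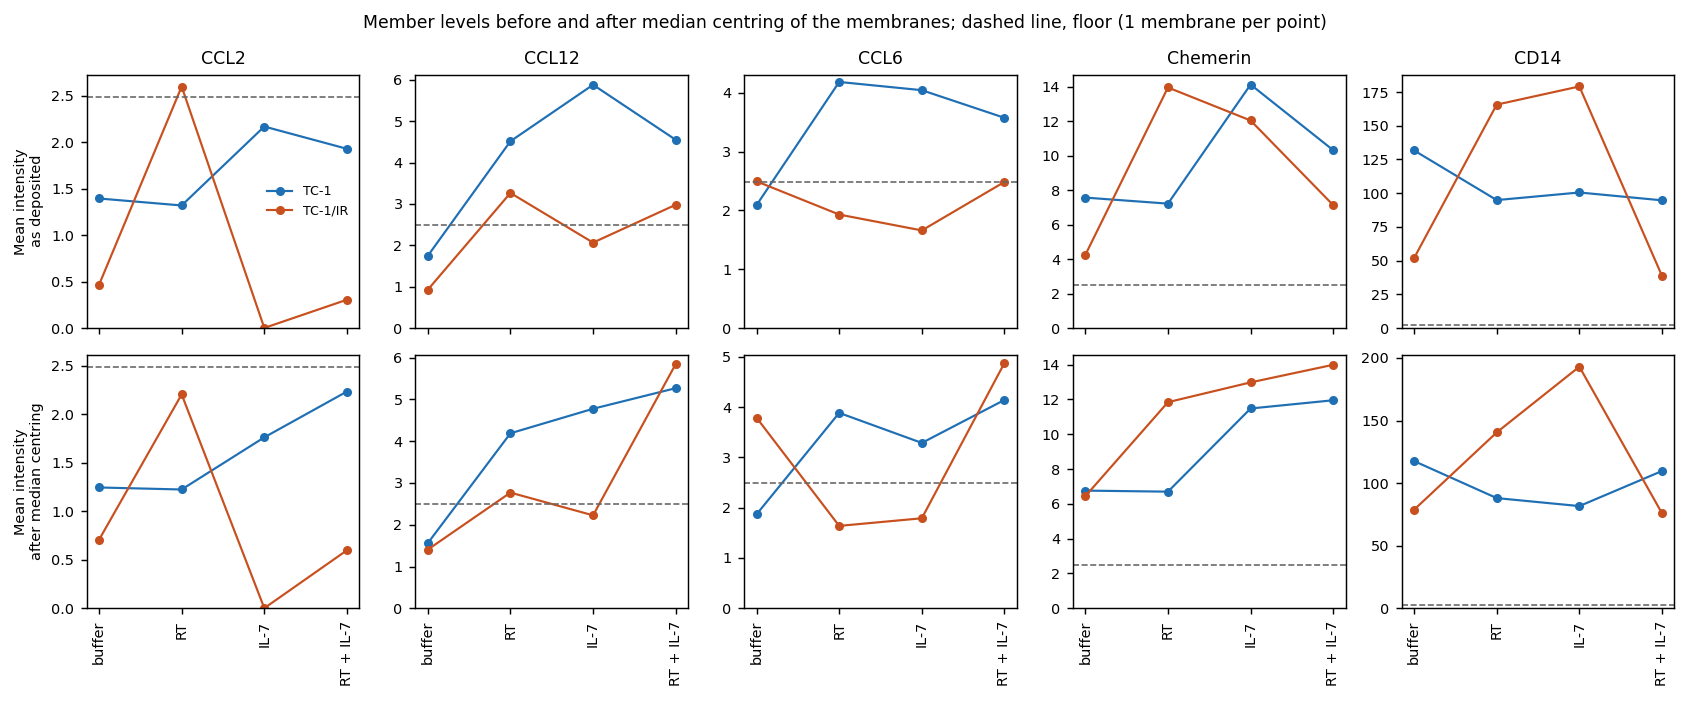
Levels of the 5 proteins by treatment in each line, as deposited and after median centring (linear scale, arbitrary units), with 1 membrane per point, the floor dashed and joining strokes only to tie the membranes of a tumour line together. CD14 of TC-1/IR kept its peak with single agents after centring, at 141 and 193 against 78.7 and 75.9, whereas centred chemerin of TC-1/IR was 11.84, 12.98 and 13.99 on the treated membranes against 6.44 with buffer.

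How far the combination departed from the sum of the single agents was taken as the log2 level with RT + IL-7, minus RT, minus IL-7, plus buffer, where 0 means that effects add on the log2 scale. For CD14 it was -3.89 in TC-1/IR, the second lowest of the 28 analytes above the floor on all 4 membranes of that line, whose median was -1.64. Among the 28, only myeloperoxidase, a neutrophil granule enzyme, was lower, at -4.29. Analytes under the floor on any membrane of the line, such as TNF-α with buffer and with RT + IL-7, were not ranked. In TC-1 the departure of CD14 was 0.39, the second highest of 63 analytes with a median of -0.47, below CX3CL1 at 1.51. After centring it was -2.18 in TC-1/IR, second lowest of 31 analytes with a median of 0.07, and 0.84 in TC-1. The difference between the lines in this departure was not tested, since 1 membrane a group leaves no error for it.

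**Figure D3:**
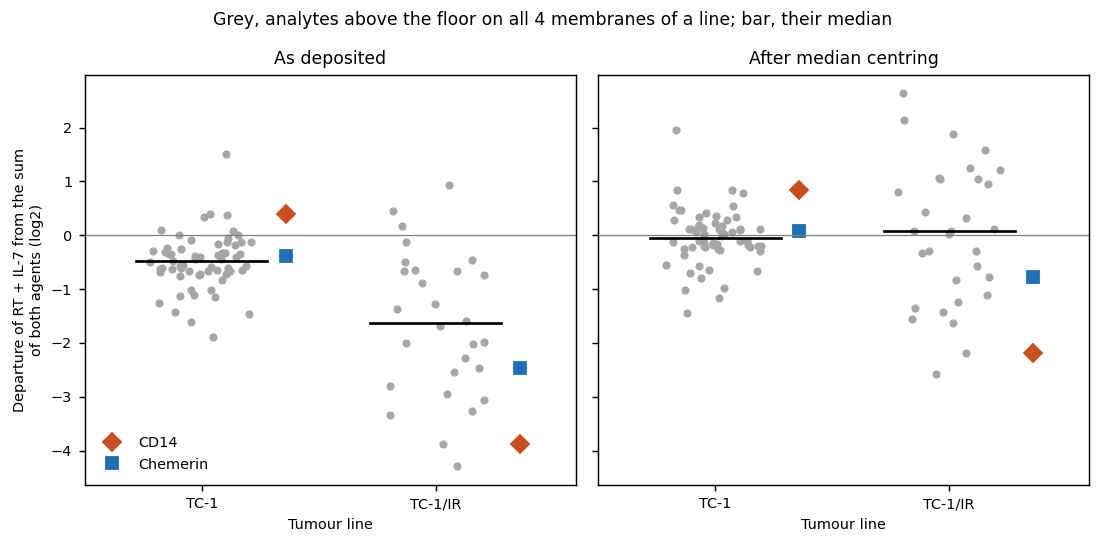
Departure of RT + IL-7 from the sum of the single agents (log2) for the analytes above the floor on all 4 membranes of a line, as deposited and centred, in grey with their median as a bar, and with CD14 and chemerin marked beside them. CD14 lay near the top of the TC-1 analytes at 0.39 and near the bottom of the TC-1/IR analytes at -3.89.

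Chemerin was at 7.57 with buffer, 7.22 with RT, 14.1 with IL-7 and 10.3 with RT + IL-7 in TC-1. Its TC-1/IR levels were 4.24, 13.96, 12.045 and 7.13 in the same order. The lowest membrane was thus TC-1/IR buffer and the highest TC-1 IL-7, closely followed by TC-1/IR RT. Spots overlapped between neighbours in the order of levels except above TC-1/IR buffer and between TC-1 buffer and TC-1 RT + IL-7. The mean over treatments was 9.81 ± 3.20 (SD, n = 4) for TC-1 tumours and 9.34 ± 4.46 for TC-1/IR tumours. Among the TC-1 membranes chemerin passed the rule for IL-7 against buffer, 1.87-fold higher, where 31.9% of 91 analytes were higher. In TC-1/IR it was 3.29-fold higher with RT, 2.84-fold higher with IL-7 and 1.68-fold higher with both than with buffer, and 15.9% of 44 analytes were higher with both. The combination lay 1.96-fold below RT and 1.69-fold below IL-7.

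The first part of that pattern, more chemerin in every treated TC-1/IR tumour than with buffer, held after centring, with 1.84-fold, 2.02-fold and 2.17-fold, the last where 23.8% of analytes were higher. The second part did not: the centred combination was above RT and IL-7, by log2 0.24 and 0.11. Chemerin was 1 of 4 analytes in 96 (4.17%) that passed the rule in each treated TC-1/IR tumour, with the IL-1 receptor antagonist, the LDL receptor and leptin. After centring it was 1 of 3 in 94 (3.19%), with fetuin A and the IL-1 receptor antagonist. These shares are over analytes above the floor on any membrane of either line, so not all of them could pass. As deposited, 44 were measured for the combination against buffer in TC-1/IR. This pattern, too, was picked out after the values had been seen.

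CCL12 was above the floor on 5 of the 6 treated membranes and below it with buffer in both lines. Its level in TC-1 was 1.745 with buffer, 4.515 with RT, 5.88 with IL-7 and 4.55 with RT + IL-7. The TC-1/IR levels were 0.925 with buffer, 3.265 with RT, 2.065 with IL-7 and 2.98 with RT + IL-7, so that it was under the floor with IL-7 alone as well. Against buffer in TC-1, CCL12 was at least 1.81-fold higher with RT, where 19.8% of 86 analytes were higher. The bound was 2.36-fold with IL-7 and 1.83-fold with both, where 16.9% of 83 analytes were higher. CCL12 was 1 of 7 analytes in 96 (7.29%) higher than buffer in each treated TC-1 tumour. Being under the floor with buffer, it counted as measured through the treated TC-1 membranes alone and could not have been lower. The pattern was picked out after the values had been seen. In TC-1/IR the bounds against buffer were 1.31-fold with RT and 1.197-fold with both, and neither passed. Between the combination and the single agents in TC-1, 0 of the 4 proteins measured passed, where 4.49% of analytes were higher and 10.1% lower than with RT, and 2.2% higher and 22% lower than with IL-7.

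Scaling bore on the reading of CCL12 in TC-1/IR. Centred CCL12 was 1.40 with buffer, 2.77 with RT, 2.23 with IL-7 and 5.85 with RT + IL-7 in TC-1/IR, and 1.56, 4.19, 4.78 and 5.27 in TC-1. After centring, every spot of the 6 treated membranes lay above every spot of the 2 buffer membranes for 2 of 94 analytes (2.13%), CCL12 and the growth factor amphiregulin. That ordering was picked out after the values had been seen and is a description. For CCL12 it rests in part on levels under the floor, with buffer in both lines and with IL-7 in TC-1/IR. In TC-1/IR the centred combination was then at least 2.35-fold above buffer, 2.11-fold above RT and at least 2.35-fold above IL-7 in CCL12, where 33.3% of analytes were higher than with RT and 22.7% higher than with IL-7. As deposited only the chemokine CXCL10, 1 of 96 analytes (1.04%), was so ordered.

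CCL11 (eotaxin), an eosinophil attractant whose gene lies between Ccl2 and Ccl12 in the RefSeq table, was at 3.745, 5.445, 8.085 and 4.91 in TC-1 with buffer, RT, IL-7 and both. On the TC-1/IR membranes CCL11 was at 1.365, 3.53, 4.96 and 2.78. Like CCL12 it was lowest with buffer in each line. It is named for its position, after its values had been seen.

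CCL6 gave weak and uneven spots. Its mean in TC-1 was 2.09 with buffer, 4.185 with RT, 4.045 with IL-7 and 3.575 with RT + IL-7. On the TC-1/IR membranes CCL6 was 2.495, 1.93, 1.66 and 2.485 in that order, just above the floor with buffer and under it otherwise. The treated TC-1 membranes were the 3 highest, but duplicate spots of neighbours in the order of levels overlapped throughout. The first spot was brighter than the second on 8 of 8 membranes, which was so for 6 of the 111 analytes, and the coefficient of variation between the spots was 15.7% to 65.6%. Against TC-1 buffer, CCL6 was higher by at least 1.68-fold with RT and by at least 1.62-fold with IL-7. With TC-1 buffer it was under the floor, so it could not have been lower in either comparison. Centring turned its TC-1/IR levels to 3.79, 1.64, 1.79 and 4.88, so that RT and IL-7 were each at least 1.52-fold below buffer, where 22.2% and 21% of analytes were lower. Scaling against an unscaled floor raised the buffer level from 2.495 and carried that of RT + IL-7, 2.485, over the floor. RT and IL-7 stayed under it, so CCL6 could not have been higher with them than with buffer. With the second spot alone, CCL6 passed the rule in 0 of 14 comparisons of membranes, against 4 with the mean. Its brightest second spot, 3.65 in TC-1 with RT, was less than 1.5-fold above the floor, so none could pass.

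CCL2 was near the limit of the assay. It was at 1.395, 1.32, 2.17 and 1.93 in TC-1 with buffer, RT, IL-7 and both. In TC-1/IR it was at 0.465 with buffer, 2.60 with RT and 0.305 with both, and with IL-7 both spots held 0.001, which was taken as a placeholder for no signal. It passed the rule in 0 of 14 comparisons. At a floor of 0.5% of the highest analyte CCL2 was higher in 3 and lower in 3. Whether CCL2 differed between these tumours was not detectable above the floor.

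Next, the lines were compared under each treatment, the question of the study's resistant model. With buffer, TC-1/IR held 2.54-fold less CD14 and 1.79-fold less chemerin than TC-1. Of 3 proteins measured, 2 were thus lower, where 51.4% of 72 analytes were lower. With RT the direction turned: CD14 was 1.75-fold and chemerin 1.93-fold higher in TC-1/IR, and 13.3% of 90 analytes were higher. CCL6 was at least 1.68-fold lower there, where 36.7% were lower. Its TC-1/IR level with RT was under the floor, so it could not have been higher.

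With IL-7, CD14 was 1.78-fold higher in TC-1/IR, where 6.45% of 93 analytes were higher. CCL12 was at least 2.36-fold and CCL6 at least 1.62-fold lower, where 57% were lower. Both were under the floor in TC-1/IR with IL-7 and could not have been higher. With RT + IL-7, CD14 was 2.45-fold and CCL12 1.53-fold lower, where 56.4% of 78 analytes were lower. After centring, CD14 remained higher in TC-1/IR with RT (1.596-fold, against 11.6% of analytes) and with IL-7 (2.36-fold, against 13.8%). Its levels with buffer and with both stayed lower, at log2 -0.58 and -0.53, but fell short of the 1.5-fold asked for. Chemerin with buffer was then at 6.44 against 6.76, a log2 ratio of -0.071 that no longer passed, and CCL12 with both turned to log2 0.15.

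**Figure D4:**
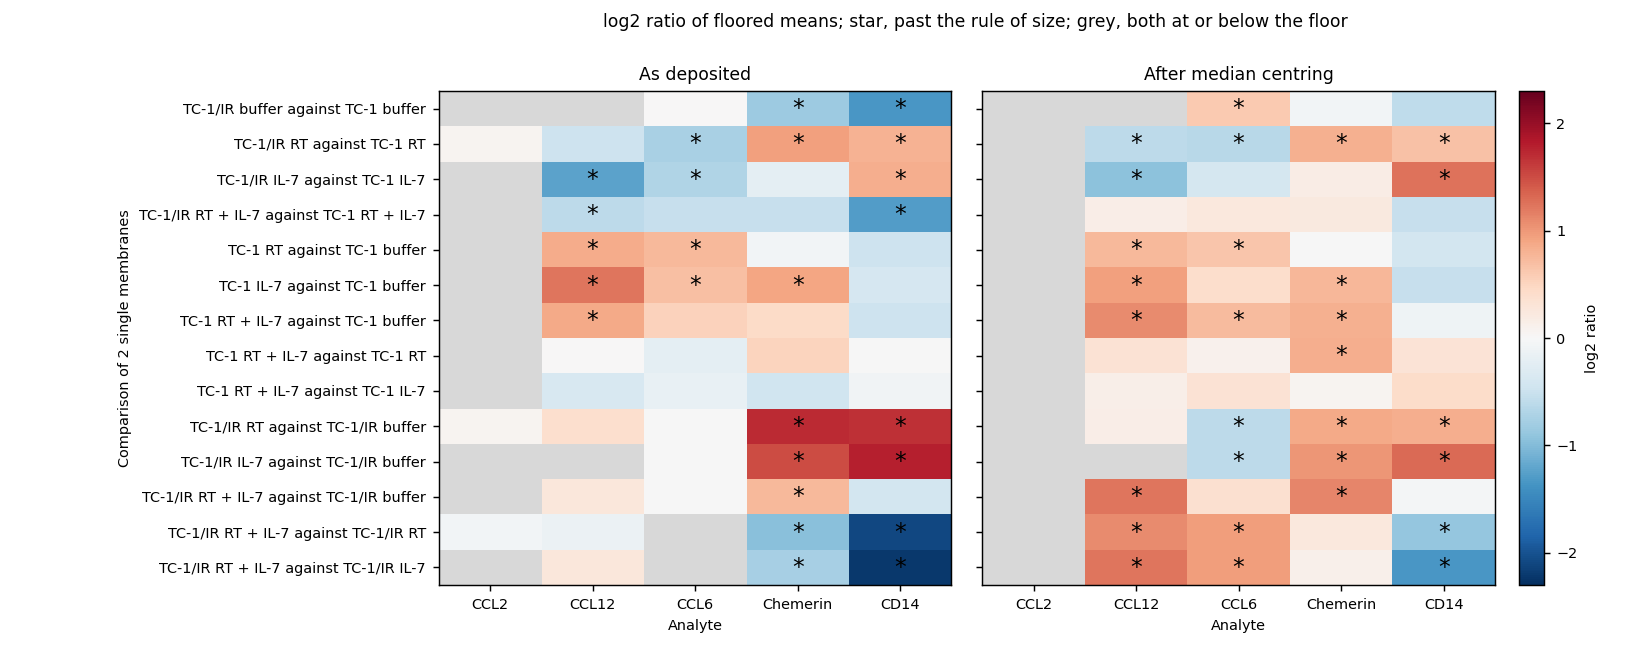
Log2 ratio of floored means of the 5 proteins in the 14 comparisons of single membranes, as deposited and centred, with a star where the rule of size was passed and grey where neither mean was above the floor. As deposited, CD14 of TC-1/IR was below that of TC-1 with buffer (-1.34) and with both (-1.29) and higher with RT (0.80) and with IL-7 (0.83).

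A test over membranes was possible only by treating the interactions of line, RT and IL-7 as error. The fit was limma on log2 intensity over the 75 analytes that 4 or more membranes measured above the floor, with Benjamini-Hochberg adjustment, and CCL2 was not among them. For line, 0 of the 4 tested proteins were called, where 1.33% of analytes were called higher and 40% lower in TC-1/IR. CCL12 differed by log2 -0.58 (SE 0.27, limma adjusted p = 0.120) and was lower in 3 of 4 matched pairs of membranes, with both values at the floor in the remaining pair. CCL6 differed by -0.49 (SE 0.23, limma adjusted p = 0.117). CD14, at -0.25 (SE 0.54, limma adjusted p = 0.755), was higher in 2 pairs and lower in 2. Chemerin was at -0.16 (SE 0.40, limma adjusted p = 0.775). The median of the 4 was -0.37, and that of all 75 analytes was -0.58.

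For RT, 0 of 4 were called, with 1.33% of analytes called higher and 0% lower, and the limma adjusted p was 0.969 for each. Their log2 differences lay between -0.27 for CD14 and 0.28 for CCL12. For IL-7, 0 of 4 were called, where limma called 0% of analytes in either direction and 0 had an unadjusted p under 0.05. Chemerin had the largest difference of the 4, log2 0.49 (SE 0.40, limma adjusted p = 0.974), and was higher with IL-7 in 3 of 4 pairs. These averages hide opposed pairs: for CD14 the difference with RT ran from log2 -2.21 (TC-1/IR, with IL-7) to 1.68 (TC-1/IR, without IL-7).

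The interaction of RT with IL-7, fitted over both lines, gave log2 -1.75 for CD14 (SE 0.88, limma adjusted p = 0.309) and -1.43 for chemerin (SE 0.63, limma adjusted p = 0.263). CCL12 was at -0.68 and CCL6 at -0.46, with limma adjusted p of 0.440 and 0.529. No call was made among the 4, nor among the 75 (0% in either direction, and 14 at an unadjusted p under 0.05). The median over all 75 analytes was -0.64. Without the TC-1 RT membrane both proteins were called, CD14 at -2.45 (limma adjusted p = 0.00747) and chemerin at -2.17 (limma adjusted p = 0.0103), among 15 analytes in all. After median centring they shrank to -0.67 for CD14 (limma adjusted p = 0.919) and -0.35 for chemerin (limma adjusted p = 0.994). For line by RT and line by IL-7, limma called 0 of the 4 proteins, with adjusted p of 0.999 and 0.982, and 0% of analytes in either direction (0 and 1 at an unadjusted p under 0.05). The intervals were wide, from log2 -2.77 to 2.79 for CD14 and RT.

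Other attractants and growth factors of monocytes and dendritic cells (8 analytes) and cytokines that macrophages make when CD14 and TLR4 are stimulated (10 analytes) were counted by the same tests. For line, 2 of the 3 tested of the former were lower in TC-1/IR by limma: CX3CL1, a monocyte attractant, and M-CSF, the macrophage growth factor. Of the latter, 4 of 8 tested were lower: TNF-α, the IL-1 receptor antagonist, G-CSF and pentraxin 3. Against these, 40% of all analytes were lower. None of either list was called for RT or for IL-7.

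Between single TC-1/IR membranes, 3 of the 4 measured recruitment factors were higher with RT than with buffer, where 46.3% of all analytes were higher. Of the list only M-CSF was above the floor with buffer. The 3 counted as measured through the RT membrane alone, so they could not have been lower. After centring 19% of all analytes were higher, and the list was not counted again. CX3CL1 was at least 3.45-fold higher, and the analyte for CCL3 and CCL4, attractants of monocytes, at least 2.52-fold higher. With IL-7 in that line, 0 of 2 were higher. Of the macrophage products, 4 of 7 were higher with RT and 2 of 5 with IL-7, the IL-1 receptor antagonist by 4.76-fold and 5.54-fold, against 46.3% and 49.1% of all analytes. CXCL2 was at least 3.18-fold higher with RT, and TNF-α at least 1.59-fold higher with IL-7. Some of these products, such as TNF-α, were under the floor with buffer and likewise could not have been lower.

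TNF-α, a main product of CD14 and TLR4 signalling, was above the floor in TC-1/IR with single agents, at 3.79 with RT and 3.965 with IL-7. It was below the floor with buffer (0.80) and with RT + IL-7 (0.17). The IL-1 receptor antagonist and IL-10 were also highest in TC-1/IR with the single agents, but other macrophage products were not. CXCL1 and CXCL2 passed the floor there on the RT membrane only, at 2.885 and 7.91. IL-12 was lower with RT (3.655) than with buffer (4.715), and pentraxin 3 lower with IL-7 (3.11) than with buffer (3.635). In TC-1, TNF-α was at 8.31 with buffer, 5.345 with RT, 5.27 with IL-7 and 4.40 with both. Its highest TC-1 level was thus with buffer, as for CD14, but the other macrophage products above the floor in TC-1 were highest with RT or IL-7. The IL-1 receptor antagonist was at 47.7, 53.4, 101.6 and 71.0 in TC-1 with buffer, RT, IL-7 and both.

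Among analytes above the floor on all 8 membranes, those most like CD14 in log2 level were fetuin A (Pearson r = 0.94), osteopontin (0.90) and MMP-2 (0.87), over 8 membranes. After centring they were fetuin A (0.81), complement factor D (0.66) and myeloperoxidase (0.59). Chemerin was most like complement factor D (0.83), cystatin C (0.79) and fetuin A (0.75), and after centring complement factor D (0.75) came first again. CCL12 was most like IL-15 (0.79) as deposited and after centring (0.73). CCL6 was most like IL-11 (0.81) as deposited and DKK-1 (0.79) after centring. The points share the overall signal of each membrane, and the values are descriptions.

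Some markers of other contents of a lysate moved with CD14 and chemerin in TC-1/IR, and others did not. Fetuin A, a liver protein of plasma, was at 41.5 with buffer, 134.5 with RT, 124.9 with IL-7 and 48.4 with both. The summed plasma proteins of the array (6 analytes) were at 219, 331, 390 and 221 in that order, and at 177 to 251 in TC-1. Complement factor D, made mainly by fat, was at 24.6, 74.8, 83.5 and 26.3, while adiponectin and resistin did not reach the floor on any TC-1/IR membrane. Leptin, a fat hormone, was at 3.28, 6.125, 5.125 and 6.11 there, and was not lower with the combination than with RT or IL-7 by the rule of size. The sum of the 4 adipose products was 29.1, 82.2, 89.8 and 34.4 there, mostly complement factor D, and 40.5 to 59.9 in TC-1.

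Of the neutrophil granule products, myeloperoxidase in TC-1/IR was at 10.2 with buffer, 7.96 with RT, 102 with IL-7 and 4.075 with RT + IL-7. Lipocalin-2 was at 6.59 with IL-7 in TC-1/IR and below the floor on every other membrane. MMP-9 was below the floor on all 8 membranes. CD93, carried by myeloid and endothelial cells, was below the floor throughout. Chitinase 3-like 1, a macrophage and neutrophil product, was above it on the 3 treated TC-1 membranes and with IL-7 in TC-1/IR. The part of plasma, fat or neutrophils in the levels of CD14 and chemerin was not tested.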

How the data were processed

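Spot intensities of 8 membranes of a mouse cytokine antibody array were used as the authors deposited them, on a linear scale, with 222 spots a membrane. The kit is the Proteome Profiler Mouse XL Cytokine Array, per the labels' protocols. The sources used here do not state the image software or the background removal. Of the spots, 103 hold 0.001 or a value close to it, 98 of them in TC-1/IR, and were taken as placeholders, which no source states. The table of the series and the membrane files differed in 0 values. No control or reference spots were used, and the number of membranes limits the precision.

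Duplicate spots were averaged, values under the floor (1% of the highest analyte mean of the series, 2.49) were set to it, and log2 was taken. A fold whose lower mean is at the floor is a bound on means, written "at least". Analytes were compared between single membranes by the rule of size, and over membranes with limma 3.58.1 in R 4.3.3: additive terms for line, RT and IL-7 (4 residual degrees of freedom), a fit with line interactions (2) and one with RT by IL-7 (3). An adjusted p under 0.05 made a call. With 1 membrane a group, the interactions left out of a fit served as error together with noise. The p-values thus do not measure a spread between replicates. Where effects of line, RT and IL-7 do not add, the error is larger and calls are fewer. The methods were tested on simulated data. With 10 of 75 analytes changed by log2 1, limma recovered 63% to 74.6% of them for line, RT and IL-7. For the interactions it recovered 4.6% to 5.4%, and 55.4% to 72.2% at log2 2. The lack of interaction calls thus does not show that interactions were absent.

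The members and the lists were chosen with earlier results of these data known. Named analytes are the 5 members in every comparison, list members called by limma, the 2 largest per direction past the rule of size, and the 3 most alike per member. CCL11, amphiregulin, CXCL10, the LDL receptor, leptin and the analytes at the ends of the departure were named after their values were seen. Alternatives were median centring, floors of 0.5% and 2%, a floor per membrane, a 2-fold threshold and single spots. For limma they were also an intensity trend, no filter, a treatment block and the omission of each membrane. A floor of 0.5% with no filter was added after seeing the data.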

Additional observations from a re-analysis of the deposited data

Results flagged for a closer look

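Several effects ran in opposite directions in groups under the same contrast, with duplicate spots that did not overlap. None of these differences between groups was tested within a line, since each rests on 1 membrane a group; over both lines, limma tested RT by IL-7 and made no call. For CD14 in TC-1/IR, RT differed from buffer by log2 1.68, whereas RT + IL-7 differed from IL-7 by -2.21. Likewise IL-7 differed from buffer by 1.79, whereas RT + IL-7 differed from RT by -2.10. For chemerin in TC-1/IR the same pairs of contrasts were 1.72 against -0.76 and 1.51 against -0.97.

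Between the lines, CD14 in TC-1/IR against TC-1 was at log2 -1.34 with buffer and -1.29 with RT + IL-7, but at 0.80 with RT and 0.83 with IL-7. Chemerin was at -0.84 with buffer and 0.95 with RT, but after median centring its value with buffer was -0.071. After centring, neither that comparison nor those of CD14 with buffer and with both passed the rule of size. CD14 stayed lower in TC-1/IR in those, at -0.58 and -0.53. Summed signal of the TC-1/IR membranes was high with the single agents and low with buffer and with both, and its part in these values was not tested.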

How the results depend on the processing

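CCL2, CCL6 and CCL12 lay near the floor, and overall signal moved with treatment in TC-1/IR, which limits what these comparisons can show. No paired analysis was possible because the labels give no replicate or animal numbers to pair by. The lines could be matched by treatment only: with treatment as a block limma again called 0 members for line, with adjusted p of 0.089 for CCL12 and 0.094 for CCL6. Where a value below moved, the cause was not tested, except that a higher floor or threshold leaves fewer calls by construction. Of 196 recomputed counts of members, 158 were within 1.5 times the main count.

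For line, limma called 0 members, but 1 (CCL6, adjusted p = 0.0334) with an intensity trend and 2 without the TC-1 buffer membrane (CCL6 at -0.67, adjusted p = 0.0356, and CCL12 at -0.81, adjusted p = 0.0437), a range of 0 to 2. For RT by IL-7 the range on leaving out a membrane was 0 to 2. Over all analytes, the calls for line numbered 31, and 25 after centring, 40 at a floor of 0.5%, 10 at 2% and 7 to 38 without a membrane.

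Summed over the 14 comparisons, members made 25 passes of the rule of size, 15 at a floor of 2% and 10 at 2-fold. The same member can recur in these sums, which were not set against all analytes. In TC-1/IR against TC-1 the count was 2 with buffer (1 at 2-fold; 1 after centring, which was CCL6 as higher in TC-1/IR, while CD14 and chemerin both fell short), 3 with RT (0 at 2-fold), 3 with IL-7 (1 at a floor of 2%, 1 at 2-fold) and 2 with both (0 after centring, 1 at a floor of 2%, 1 at 2-fold, 4 with first spots, 1 with second spots). In TC-1 against buffer it was 2 with RT (0 at a floor of 2%, 0 at 2-fold, 1 with second spots), 3 with IL-7 (1 at a floor of 2%, 1 at 2-fold) and 1 with both (3 after centring, 2 at a floor of 0.5%, a floor per membrane or with first spots, 0 at a floor of 2% or 2-fold). The combination in TC-1 gave 0 against RT (1 after centring) and 0 against IL-7 (1 with second spots). In TC-1/IR it was 2 for RT (4 at a floor of 0.5% or per membrane) and 1 for both (2 after centring, at a floor of 0.5% or per membrane, 0 at a floor of 2% or 2-fold) against buffer. There it was 2 for both against RT (1 at 2-fold) and 2 against IL-7 (1 at 2-fold or with first spots).

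Median centring turned the sign of some log2 differences: line for CD14 (0.20) and chemerin (0.29), IL-7 for CD14 (0.049), line by RT for CD14 (-0.26), and RT by IL-7 for CCL6 (0.63) and CCL12 (0.23). It also turned CCL12 between lines with both (0.15) and chemerin in TC-1/IR with both against RT (0.24) and against IL-7 (0.11). Leaving out a membrane in turn gave line differences of -0.62 to 0.19 for chemerin and -0.74 to 0.24 for CD14. It gave RT differences of -0.040 to 0.25 for CCL6, -0.35 to 0.38 for chemerin and -0.77 to 0.22 for CD14, and IL-7 differences of -0.064 to 0.24 for CCL6 and -0.67 to 0.31 for CD14. For line by RT it gave -0.75 to 0.18 for CCL6, -1.93 to 1.96 for CD14, -0.53 to 0.70 for CCL12 and -0.50 to 1.98 for chemerin. For line by IL-7 it gave -0.70 to 0.23 for CCL6, -1.90 to 1.99 for CD14 and -1.68 to 0.80 for chemerin. CD14 kept its calls in TC-1/IR for RT and IL-7 against buffer and for the combination against each under all 7 alternatives.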
